A study of Drosophila melanogaster with 36 samples.

Results

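The translation initiation and elongation factors of the fly brain were followed here as a family of 52 genes among the 17562 genes of the count table. They were chosen by name: every gene whose symbol starts with eIF (43 genes) or eEF (8 genes), plus pAbp, which encodes the cytoplasmic poly(A)-binding protein. Membership was set by name and not by a measured value, but the family was chosen with earlier results of these data known.

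Initiation factors bring the small ribosomal subunit, the initiator tRNA and the mRNA together. The eIF4 proteins bind the cap of the mRNA and unwind its leader, eIF2 delivers the initiator tRNA and is recharged by eIF2B, and eIF3 is the large scaffold on the small subunit. The poly(A)-binding protein coats the tail of the mRNA and contacts the eIF4G scaffold. In elongation, eEF1alpha carries each aminoacyl-tRNA to the ribosome, the eEF1beta, eEF1gamma and eEF1delta proteins recharge it, and eEF2 moves the ribosome along. Translation is used by every cell and is among the processes most studied in aging.

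RNA was profiled in female *Drosophila* at day 5 (young) and day 70 (old) of 3 GAL4 driver lines carrying a GFP reporter. GFP+ cells were sorted from brains of GMR10E12 and GMR56F03, whose drivers are expressed mainly in ensheathing glia (glia that wrap the neuropil), and of GMR86E01, whose driver marks astrocyte-like glia. The unsorted cell suspension of the same lines was profiled as whole brain. With 3 replicates for each line, age and kind of sample, there were 12 libraries of sorted ensheathing glia, 6 of sorted astrocyte-like glia and 18 of whole brain. Each replicate was a pool of brains, dissociated for the sorted cells with actinomycin D, which blocks new transcription. Each p-value measured the spread between these pools, and nothing in the labels states that the pools came from separate cultures. A sorted sample holds the cells the driver marked at that age, and in such a pool fewer cells of a type and less RNA per cell cannot be told apart.

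The libraries held between 912285 and 17060052 counts (median 6611363), and the 52 genes took 1.10% to 1.88% of the counts of a library. Expression is given as CPM, the count of a gene scaled to the size of its library, after TMM normalization over all 36 libraries. The lowest level that can be told from a count of 0 (3 counts in a library) lay between 0.171 and 3.83 CPM, which covers counting error only. A pair of libraries stood apart: whole brain GMR10E12 day 70 replicate 1 (912285 counts, mean correlation of 0.799 with its own replicates) and astrocyte-like glia day 5 replicate 1 (7970 genes with counts, 0.852). The pan-glial gene repo was higher in both kinds of sorted cells than in whole brain, by 2.14 (ensheathing) and 3.01 (astrocyte-like) on the log2 scale. The summed level of 11 neuron markers was 6277 to 8697 CPM in whole brain, 1509 to 3200 CPM in sorted ensheathing glia and 716 to 2759 CPM in sorted astrocyte-like glia, so neuronal RNA was lower in the sorted samples but present. The sum of the 4 astrocyte markers was 23724 to 25089 CPM in sorted astrocyte-like glia at day 5 and 3548 to 6366 CPM at day 70.

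Of the 52 genes, 45 had enough counts to be tested in at least 1 comparison and 44 in all 11. The remaining 7 were near the limit of detection and all were paralogs of a more abundant member: eIF3d2, eIF3f2, eIF3g2, eIF4E4, eIF4E5, eIF4E7 and eIF4H2. Their highest count in any of the 36 libraries was 17 (eIF3g2), and eIF4E7 never exceeded 1 count. The eIF4E paralog eIF4E3 passed the filter in only some comparisons and had counts in 11 libraries, 21 at most. Absence of these genes was not shown at this depth.

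Per kilobase of exon, eEF1alpha1 and eIF4A (the RNA helicase that unwinds leaders) were the leading members in the sorted cells. The mean level of eEF1alpha1 was 1270 CPM per kb in young and 1810 CPM per kb in old ensheathing glia, and that of eIF4A was 981 and 998 CPM per kb. In whole brain the order differed: eIF4A had 1106 (young) and 759 (old) CPM per kb, eEF1alpha2 619 and 499, pAbp 507 in both, and eEF1alpha1 433 and 579. In young ensheathing glia pAbp reached a mean of only 98.1 CPM per kb.

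The first question was which of these genes differ between young and old sorted ensheathing glia. Of the 45 genes tested, 12 rose and 1 fell with age (edgeR's quasi-likelihood test, adjusted p below 0.05 by Benjamini-Hochberg over all genes tested), which is to be read against 18.2% of all 9265 genes called in this comparison (9.41% higher, 8.82% lower). The median change of the members was 0.20 on the log2 scale, and that of all genes 0.01. Marker sums moved with age in the same libraries without overlap: the 4 astrocyte markers from 4358 to 7383 CPM at day 5 to 1796 to 2845 CPM at day 70 (all 4 fell), and the 3 ensheathing markers from 971 to 1381 CPM to 472 to 739 CPM (1 rose and 1 fell). Other sums rose within a line. The photoreceptor sum was 179 to 606 CPM in young and 958 to 1987 CPM in old GMR56F03 libraries. In GMR10E12 it was 2781 to 4460 CPM and 4848 to 7430 CPM. The hemocyte sum was 449 to 1401 CPM in young and 1598 to 2086 CPM in old GMR10E12 libraries. In GMR56F03 its ages overlapped, at 971 to 1844 CPM and 415 to 1030 CPM. The part of all these markers in the changes below was not tested.

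The poly(A)-binding protein gene pAbp (2R:18140078-18147191, plus strand) showed the smallest adjusted p. In young GMR10E12 ensheathing glia its level was 401, 483 and 414 CPM, and in old ones 2118, 2045 and 1725 CPM. In young GMR56F03 ensheathing glia it was 397, 592 and 245 CPM, and in old ones 1455, 1549 and 1815 CPM. Every old library of both lines was above every young one. The rise was 4.21-fold (log2 2.07 ± 0.18 SE, adjusted p = 1.33e-05), and the call was kept in all 25 alternatives tried, with log2 changes between 1.92 and 2.28. It passed in each line alone (2.19 in GMR10E12 and 1.97 in GMR56F03). The summed fat body markers were at 15.8 to 31.6 CPM in young GMR10E12 libraries and at 72.9, 101 and 5603 CPM in old ones. In GMR56F03 libraries they were at 18.4 to 22.6 CPM at day 5 and 16.5 to 66.3 CPM at day 70. The part of fat body RNA in the rise of pAbp was not tested.

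In whole brain pAbp was about level between the ages, at 1941, 2181 and 2516 CPM (lowest, median and highest of 9) at day 5 and 1804, 2064 and 3325 CPM at day 70. The highest of these was the shallow library named above. The log2 change was −0.02 ± 0.09 (adjusted p = 0.902). Old sorted glia thus approached the whole brain level from below: as a share of the summed level of the 52 genes, pAbp made up 1.91% to 4.45% in young ensheathing glia, 9.19% to 11.3% in old ones and 14.2% to 26.0% in whole brain.

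**Figure D1:**
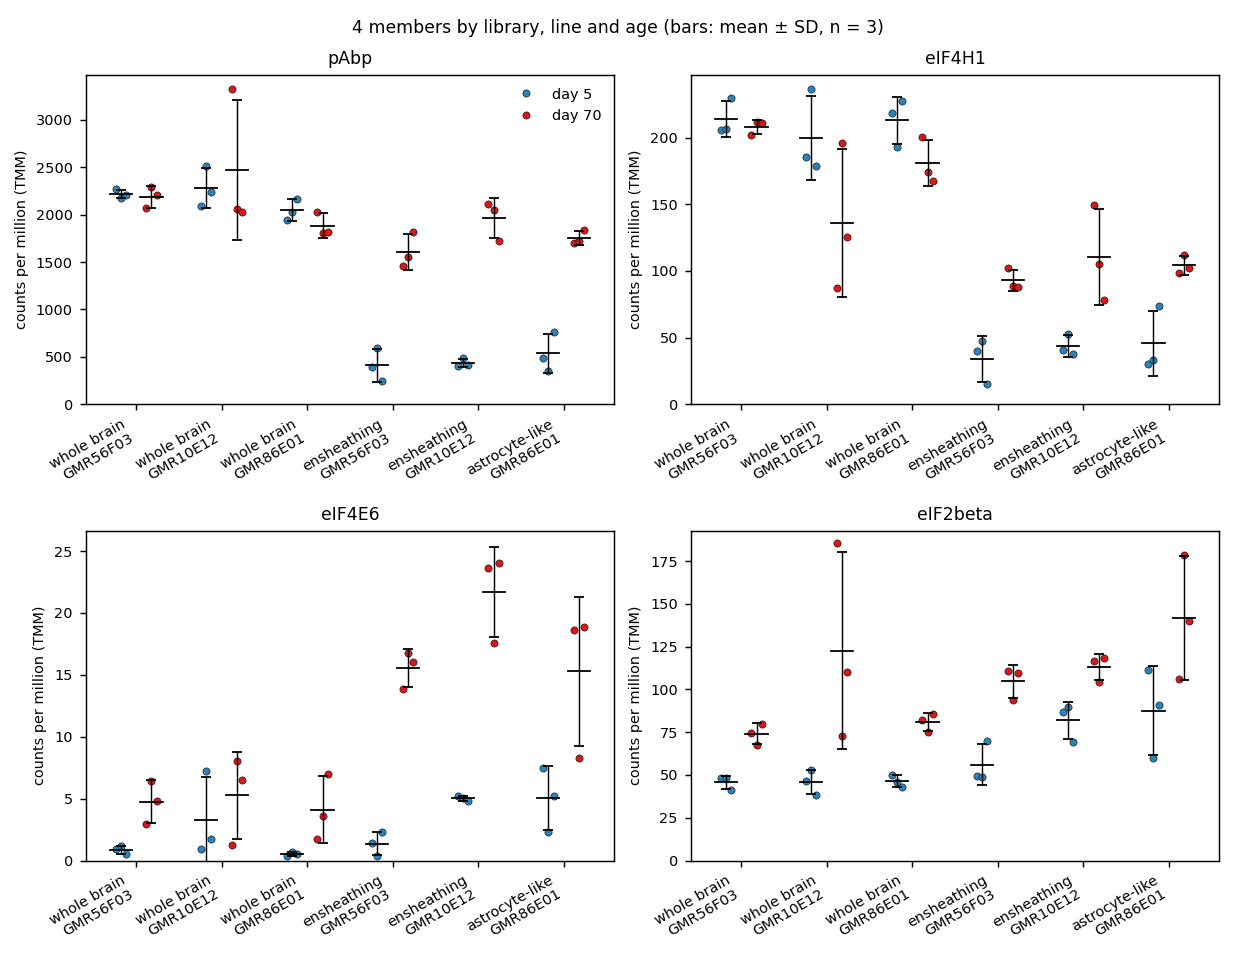
Expression (CPM, TMM-normalized) of pAbp, eIF4H1, eIF4E6 and eIF2beta in each of the 36 libraries by kind of sample, driver line and age; each point is a library and bars are mean ± SD (n = 3). For pAbp, the 6 old ensheathing glia libraries sit at 1455 to 2118 CPM and the 6 young ones at 245 to 592 CPM, while whole brain is between 1804 and 3325 CPM at both ages.

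A cofactor of the helicase, eIF4H1 (X:16448665-16454972, plus strand), moved in the same way. Its lowest, median and highest levels in ensheathing glia were 14.9, 40.1 and 52.8 CPM at day 5 and 78.0, 95.2 and 149 CPM at day 70, with no overlap. The rise was 2.66-fold (log2 1.41 ± 0.25, adjusted p = 0.00139), and the call was kept in all 25 alternatives. In whole brain the levels were 179 to 236 CPM at day 5 and 86.9 to 211 CPM at day 70, and the log2 change of −0.29 ± 0.12 did not pass the test (adjusted p = 0.107).

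The eIF4E paralog eIF4E6 (3R:29026439-29027174, minus strand) was much rarer. In ensheathing glia it stood at 0.384, 3.54 and 5.24 CPM (lowest, median and highest of 6) at day 5, and at 13.9, 17.2 and 24 CPM at day 70. The ages did not overlap, and the rise was 6.33-fold (log2 2.66 ± 0.36, adjusted p = 0.000256). In raw terms the young libraries held 1 to 44 counts of this gene and the old ones 79 to 173.

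Among the factors of initiator tRNA delivery, eIF2beta, a subunit of eIF2 (3L:12525093-12526731, minus strand), rose from 48.8, 69.6 and 89.4 CPM at day 5 to 93.6, 110 and 118 CPM at day 70 (log2 0.68 ± 0.14, adjusted p = 0.00449). The groups were separate. Of its exon bases 5.14% are shared with ver on the opposite strand, and whether strand was used in counting is not given in the sources used here. The phosphorylated subunit of the same complex, eIF2alpha, was at 40.7, 49.3 and 65.0 CPM in young and 46.5, 66.6 and 94.1 CPM in old ensheathing glia, which overlap (log2 0.44 ± 0.18, adjusted p = 0.112). None of the 5 subunits of eIF2B, the exchange factor of eIF2, passed edgeR's test, and 1 had an unadjusted p below 0.05.

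In the eEF1 group, 3 of 5 genes rose and 1 fell. The exchange factor subunits eEF1beta (log2 0.61 ± 0.11, adjusted p = 0.00232) and eEF1gamma (0.57 ± 0.11, adjusted p = 0.00314) rose. Of the 5, only eEF1beta had ages that did not overlap, at 198 to 265 CPM and 306 to 394 CPM. How many of all genes had separate ages was not counted for any kind of sample. The tRNA carrier eEF1alpha1 rose (0.51 ± 0.12, adjusted p = 0.00926) and its paralog eEF1alpha2 fell (−0.40 ± 0.11, adjusted p = 0.0213). These last 2 calls were lost when the lines were fitted without a line term and in each line alone. Of the other elongation genes, eEF5, which relieves stalling at proline stretches, rose by 0.49 ± 0.11 (adjusted p = 0.00618), and the translocase eEF2 changed by 0.25 ± 0.09 (adjusted p = 0.0704).

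Of the 13 tested subunits of eIF3, 11 had a positive change with age in ensheathing glia but only eIF3j (0.48 ± 0.11, adjusted p = 0.00679) and eIF3f1 (0.56 ± 0.15, adjusted p = 0.0193) passed the test, and the median was 0.19. Of the 5 start-site and subunit-joining factors, eIF6, which keeps the large subunit from joining too early, rose from 9.44, 10.6 and 13.6 CPM to 9.88, 26.4 and 32.7 CPM (log2 1.09 ± 0.25, adjusted p = 0.00858). These ranges overlap. The start-codon factor eIF1 rose by 0.35 ± 0.11 (adjusted p = 0.0484), a call that was kept in 7 of 25 alternatives.

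The core cap-binding factors themselves did not pass the test in ensheathing glia. The cap-binding protein eIF4E1 was at 313, 335 and 362 CPM (lowest, median and highest) at day 5 and 296, 339 and 361 CPM at day 70 (log2 −0.01 ± 0.09). The helicase eIF4A changed by 0.02 ± 0.08 and the scaffold eIF4G1 by 0.18 ± 0.14. For eIF4G1 the ranges were 108 to 177 CPM at day 5 and 145 to 215 CPM at day 70, so a small change was not excluded. So within the cap and tail group of 7 genes, pAbp and eIF4H1 were the 2 that passed the test.

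In astrocyte-like glia, with 3 libraries at each age, 2 members rose and 1 fell of 44 tested, beside 6.44% of all 8585 genes (2.8% higher, 3.65% lower). Again pAbp showed the smallest adjusted p: 493, 354 and 764 CPM at day 5 against 1700.0, 1718 and 1839 CPM at day 70. All old libraries were above all young ones, and the rise was 3.29-fold (log2 1.72 ± 0.27, adjusted p = 0.0084). The call was kept in 14 of 16 alternatives and was lost where all libraries numbered 1 (adjusted p = 0.0510) or 2 (adjusted p = 0.0660) were left out. Without young replicate 1, the library that stood apart, pAbp changed by 1.66 (adjusted p = 0.0459).

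The other called members in these cells were eEF1alpha2 and eIF4A, which moved in opposite directions. For eEF1alpha2 the values were 352, 318 and 422 CPM at day 5 and 723, 588 and 606 CPM at day 70 (log2 0.82 ± 0.19, adjusted p = 0.0393). For eIF4A they were 4594, 4252 and 3942 CPM at day 5 and 2976, 2941 and 2772 CPM at day 70 (−0.55 ± 0.13, adjusted p = 0.0473). The ages were separate for both genes, but without young replicate 1 neither passed (adjusted p = 0.127 and 0.176), each call was kept in 5 of 16 alternatives, and the change of eIF4A was −0.16 when libraries were scaled by their totals.

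Several more genes had separate ages in astrocyte-like glia without passing the test, and those given here are not all of them. How many of all genes separate in this way was not counted. With 3 libraries at each age, separation alone is weak evidence of a change. The level of eIF4H1 was 30.0, 33.1 and 73.7 CPM at day 5 and 98.1, 112 and 103 CPM at day 70 (log2 1.18 ± 0.36, adjusted p = 0.0954). The alternative cap-binding protein eIF4EHP, a repressor of selected mRNAs, had 16.7, 41.5 and 59.8 CPM at day 5 and 107, 75.5 and 64.9 CPM at day 70 (1.05 ± 0.44, adjusted p = 0.208). For eEF1alpha1 the levels were 5559, 5416 and 4846 CPM at day 5 and 3159, 4497 and 4285 CPM at day 70 (−0.40 ± 0.16, adjusted p = 0.199). Its change ran from −0.47 to −0.0045 over the other settings tried. Of the 13 eIF3 subunits none passed edgeR's test (4 at an unadjusted p below 0.05), and 12 had a negative change (median −0.39).

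That sign depended on the scale. With library totals in place of TMM factors the median change of all genes in astrocyte-like glia moved from 0.11 to 0.50, and 7 of the 13 eIF3 subunits were then positive and 6 negative. The median change of the 5 eEF1 genes moved from −0.38 to 0.01 with the same switch. The summed level of the 11 neuron markers moved together with these ages: 716 to 1235 CPM in young and 1995 to 2759 CPM in old astrocyte-like glia, with 7 of 11 markers rising and all 11 positive. In ensheathing glia it was 2492 to 3200 CPM in young and 1509 to 2273 CPM in old libraries (2 markers rose, 3 fell, and the median change was −0.11). The summed hemocyte markers were 2924 to 3693 CPM in young and 483 to 745 CPM in old astrocyte-like glia, and their part in these changes was not tested.

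In whole brain, 11 of 44 members were called with age, 4 higher and 7 lower, beside 21.4% of all 9650 genes (11% higher, 10.4% lower). The smallest adjusted p belonged to eIF2beta, at 38.4, 46.6 and 52.8 CPM (lowest, median and highest of 9) at day 5 and 67.8, 80.0 and 185 CPM at day 70. The ages did not overlap, and the rise was 1.93-fold (log2 0.94 ± 0.15, adjusted p = 0.000266). The highest value, 185 CPM, was that of the shallow library, without which the change was 0.80 (adjusted p = 5.21e-06). This call was kept in 31 of 32 alternatives.

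The other 3 rises in whole brain were eIF4E6 (log2 2.06 ± 0.48, adjusted p = 0.0051), eIF6 (0.65 ± 0.18, adjusted p = 0.0166) and eEF1alpha1 (0.41 ± 0.13, adjusted p = 0.0345). For eIF4E6 the whole brain range was 0.353 to 7.23 CPM at day 5 and 1.28 to 8.02 CPM at day 70, with 1 to 85 counts a library, and the ages overlapped. The falls were eIF4A (−0.57 ± 0.13, adjusted p = 0.00387), eIF4E1 (−0.33 ± 0.09, adjusted p = 0.0105), eEF1alpha2 (−0.33 ± 0.09, adjusted p = 0.0148), eIF3k (−0.31), eIF4B (−0.32), eIF3a (−0.44) and eIF3i (−0.34). For eIF4A the levels were 2378, 2663 and 3189 CPM at day 5 and 957, 2055 and 2300.1 CPM at day 70, without overlap. Scaled by library totals, which moved the median of all genes from 0.02 to 0.17, none of the 7 falls passed and 8 members were higher. With that scale 2058 of all 9650 genes were called, 81.2% of them higher.

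**Figure D2:**
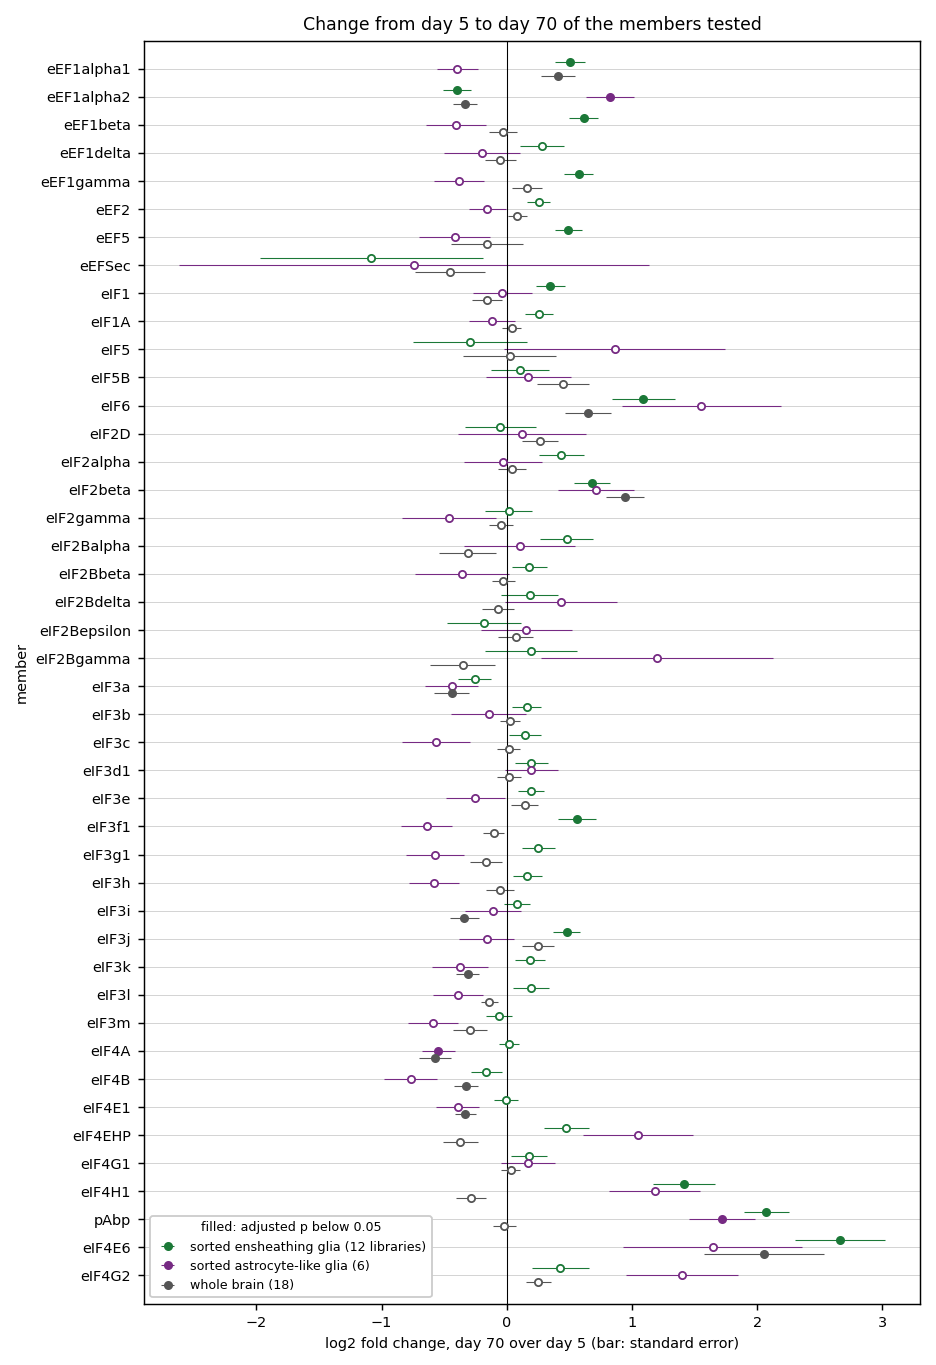
Log2 fold change from day 5 to day 70 of the members tested in 12 ensheathing, 6 astrocyte-like and 18 whole brain libraries, with standard errors; filled points passed an adjusted p of 0.05, and eIF4E3 is left out. The points of pAbp are at 2.07 (ensheathing), 1.72 (astrocyte-like) and −0.02 (whole brain).

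Whether the age effect differed between kinds of sample was tested directly, as a difference of the day 70 over day 5 changes in 1 fit. These comparisons share libraries with those above, and their values are given side by side only. Between ensheathing glia and whole brain, 4 members differed, all with the more positive change in ensheathing glia, beside 4.26% of all genes (1.5% more positive there, 2.75% more negative): pAbp (2.02 ± 0.23, adjusted p = 2.74e-05), eIF4H1 (1.70 ± 0.32, adjusted p = 0.00243), eIF3f1 (0.67, adjusted p = 0.0285) and eIF4A (0.72, adjusted p = 0.0344). With sorted and whole brain samples of the same number paired, 2 members passed, beside 71 of all 9984 genes. In that fit eIF3f1 (adjusted p = 0.0937) and eIF4A (adjusted p = 0.184) did not pass.

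Between astrocyte-like glia and whole brain 3 members differed, beside 4.28% of all genes (2.97% more positive in astrocyte-like glia, 1.31% more negative): pAbp (1.82 ± 0.31, adjusted p = 0.00942), eEF1alpha2 (0.95 ± 0.20, adjusted p = 0.0237) and eIF4EHP (1.82 ± 0.46, adjusted p = 0.0494). The call of pAbp was kept in 20 of 22 alternatives, that of eEF1alpha2 in 13 and that of eIF4EHP in 9. In the paired fit 2 members passed, beside 212 of all 9369 genes, and eEF1alpha2 (adjusted p = 0.0519) was not among these members.

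Between the 2 glial types 10 members differed in their age effect, beside 11.9% of all genes (5.46% more positive in ensheathing glia, 6.41% more negative). For 9 the change was more positive in ensheathing glia, namely eEF1alpha1 (0.95), eEF1beta (1.06), eEF1gamma (1.00), eEF5 (0.95), eIF3f1 (1.24), eIF3g1 (0.86), eIF3h (0.79), eIF3j (0.68) and eIF4A (0.61). For eEF1alpha2 it was more negative (−1.18 ± 0.20, adjusted p = 0.00115), the only one of the 10 whose call was kept in all 28 alternatives that gave it a value. With library totals as the scale, 2 members passed, 1 in each direction, beside 1459 of all 9592 genes. The median of all genes then moved from −0.05 to −0.46. The age effect of pAbp differed by 0.40 between the glial types, which did not pass the test.

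Sorted glia were then compared with whole brain over both ages. In ensheathing glia 17 members were higher and 9 lower of 45, beside 55.4% of all 9984 genes (26.8% higher, 28.6% lower). In astrocyte-like glia 20 were higher and 8 lower of 44, beside 48.6% of all 9369 genes (24.9% higher, 23.8% lower). In the fits with sorted and whole brain samples paired, 24 and 26 members passed, beside 5013 of 9984 and 4092 of 9369 genes. The share of members called was near the background in ensheathing glia and above it in astrocyte-like glia. In both, the share higher was above its background and the share lower was below it, which was not tested for the family as a set. The members are given by role below as counts and values.

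Of the eEF1 genes, 4 of 5 were higher in the ensheathing and 3 of 5 in the astrocyte-like cells. The largest differences were those of eEF1alpha1 (log2 1.59 ± 0.11, adjusted p = 2.46e-11, in ensheathing glia, and 1.88 ± 0.15, adjusted p = 7.48e-07, in astrocyte-like glia). For eEF1gamma the differences were 1.39 and 1.65, for eEF1beta 1.02 and 1.41, and for eEF5 1.28 and 1.53. The paralog eEF1alpha2 was lower, by a log2 difference of −0.90 (adjusted p = 9.12e-09) and −1.68 (adjusted p = 1.45e-07), and eEF1delta was higher in ensheathing glia (0.36). The translocase eEF2 was higher by 0.29 and 0.72, at 991 to 1607 CPM in ensheathing glia, 1463 to 1948 CPM in astrocyte-like glia and 916 to 1370 CPM in whole brain.

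Of the 13 eIF3 subunits, 7 were higher in ensheathing glia, 9 in astrocyte-like glia and none lower in either fit. Scaled by library totals, 6 were higher in astrocyte-like glia. The differences of eIF3k were 0.59 and 1.17, those of eIF3g1 0.57 and 1.15, of eIF3f1 0.50 and 0.90, of eIF3e 0.46 and 0.76, of eIF3h 0.42 and 0.78, of eIF3d1 0.43 and 0.52, and of eIF3c 0.36 and 0.66. In astrocyte-like glia eIF3m (0.61) and eIF3i (0.40) were higher too. Of the eIF2 group, eIF2alpha (0.62 and 1.09) and eIF2beta (0.38 and 0.88) were higher in both, and of the 5 subunits of eIF2B only eIF2Bbeta (0.33) passed, in ensheathing glia.

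The members lower in sorted glia were led by eIF4EHP (3R:24063077-24108960, minus strand). Its level was 178 to 417 CPM in whole brain over both ages, 26.6 to 62.4 CPM in ensheathing glia and 16.7 to 107 CPM in astrocyte-like glia, with no overlap between whole brain and either. It was lower by a log2 difference of −2.34 ± 0.13 (adjusted p = 6.35e-13) in the ensheathing and −2.23 ± 0.24 (adjusted p = 9.18e-06) in the astrocyte-like cells. Of its exon bases 6.96% are shared with Syx1A, a neuronal syntaxin gene on the same strand, and reads falling on both genes were left out of the counts.

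Over both ages pAbp was lower by a log2 difference of −1.41 (adjusted p = 5.47e-10) in ensheathing and −0.99 (adjusted p = 0.000188) in astrocyte-like glia, and eIF4H1 by −1.60 (adjusted p = 1.18e-08) and −1.47 (adjusted p = 5.24e-05). The rare eIF4E paralog eIF4E6 was higher, by 1.31 (adjusted p = 0.00131) and 2.60 (adjusted p = 0.000902).

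Also lower in both were the scaffold eIF4G1 (−0.62 and −0.37), its paralog eIF4G2 (−1.36 and −1.82), the subunit-joining factor eIF5B (−0.80 and −0.65) and eIF5 (−1.12 and −1.04). The counts of eIF5 are uncertain, since 80.8% of its exon bases are shared with CG46312. The start-codon factor eIF1 was higher in astrocyte-like glia (0.43). The helicase eIF4A was higher there too (0.64) and did not pass the test in ensheathing glia, and eEFSec, the selenocysteine elongation factor, was lower in ensheathing glia (−1.22 ± 0.43, adjusted p = 0.0188). In the paired fits eEFSec (adjusted p = 0.113) and eIF5 (adjusted p = 0.0528 in ensheathing and 0.155 in astrocyte-like glia) did not pass, nor did eIF6 (1.15 higher in astrocyte-like glia, adjusted p = 0.0208 unpaired and 0.0586 paired).

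**Figure D3:**
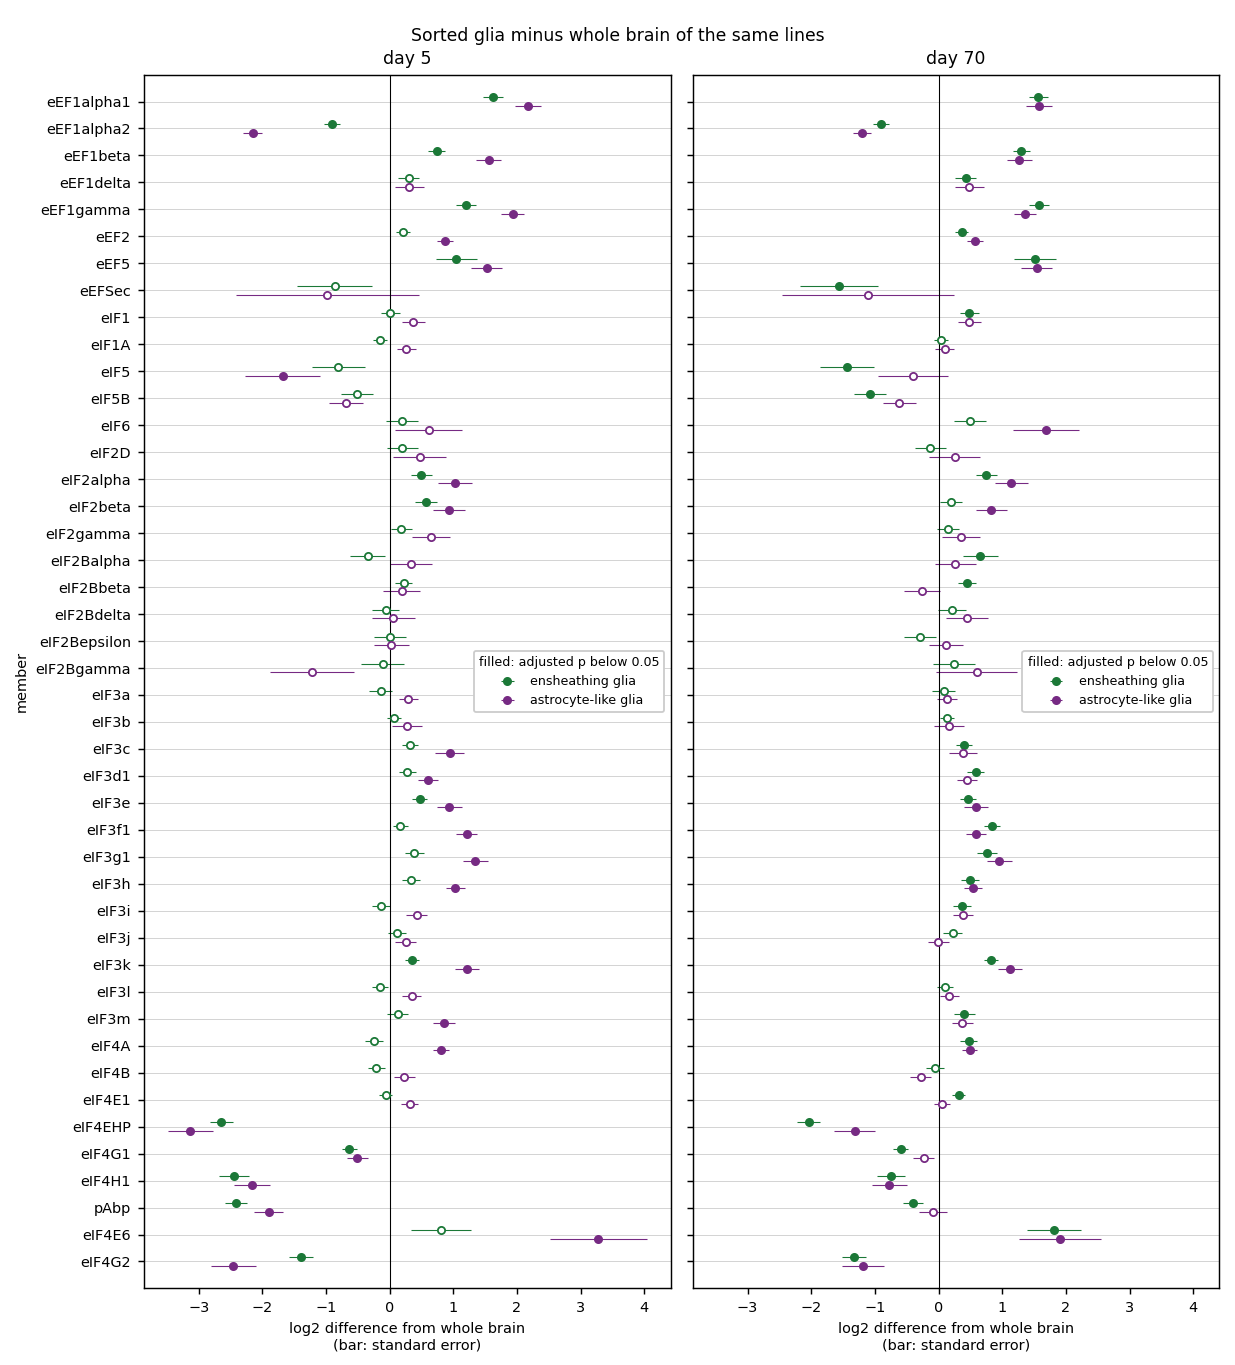
Log2 difference of sorted glia from whole brain of the same lines for the tested members, at day 5 (left) and day 70 (right), with standard errors; filled points passed an adjusted p of 0.05, and eIF4E3 is left out. The points of pAbp move from −2.42 (ensheathing) and −1.90 (astrocyte-like) at day 5 to −0.40 and −0.08 at day 70, while those of eEF1alpha1 stay between 1.57 and 2.17.

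Since pAbp rose with age in both glial types and eIF4H1 in the ensheathing cells, the difference from whole brain was also fitted at each age, a choice made after seeing the data. At day 5, 14 members were called in ensheathing glia (beside 36.3% of all genes, 19.2% higher and 17.1% lower) and 24 in astrocyte-like glia (beside 42% of all genes, 20.6% higher and 21.4% lower). At day 70 the numbers were 31 (beside 50.9%, 24.5% higher and 26.4% lower) and 19 (beside 28.6%, 16.9% higher and 11.7% lower). The level of pAbp was lower than in whole brain by 5.35-fold in young ensheathing glia (log2 −2.42, adjusted p = 1.7e-10) and 1.32-fold in old ones (−0.40, adjusted p = 0.0443). In astrocyte-like glia the difference was −1.90 (adjusted p = 2.83e-05) at day 5 and −0.08 at day 70, which did not pass. For eIF4H1 it was −2.45 and −0.75 for ensheathing cells and −2.16 and −0.77 for astrocyte-like ones at day 5 and day 70, and all 4 passed. The gap of eIF4EHP remained at both ages, at −2.65 and −2.04 for ensheathing cells and −3.14 and −1.32 for astrocyte-like ones.

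The eEF1alpha genes differed from whole brain in opposite directions in the sorted glia. Both encode the tRNA carrier of elongation, eEF1alpha1 at 2R:11891135-11895762 and eEF1alpha2 at 3R:31738468-31743306, both on the plus strand. In whole brain eEF1alpha1 was at 838, 1034 and 1582 CPM (lowest, median and highest) at day 5 and 1104, 1387 and 2152 CPM at day 70, and eEF1alpha2 was at 1369, 1662 and 1758 CPM and 777, 1387 and 1539 CPM. In ensheathing glia eEF1alpha1 was at 2045, 2981 and 4320.2 CPM at day 5 and 3425, 4594 and 5341 CPM at day 70, and eEF1alpha2 was at 731, 906 and 992 CPM and 462, 715 and 819 CPM. Only 1 whole brain library, at 2152 CPM, exceeded the lowest sorted library in eEF1alpha1, and in astrocyte-like glia the lowest value was 3159 CPM.

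Per kilobase, eEF1alpha2 made up 59.1% ± 5.29 (SD, n = 9) of the summed level of both genes in young whole brain and 46.4% ± 7.65 (n = 9) in old whole brain. The share was 21.6% ± 5.76 (n = 6) in young and 12.8% ± 4.06 (n = 6) in old ensheathing glia. In astrocyte-like glia it ran the other way, from 6.06% ± 1.24 (n = 3) at day 5 to 13.3% ± 3.66 (n = 3) at day 70. As given above, the summed neuron markers also rose with age in the astrocyte-like libraries and fell in the ensheathing ones. The summed astrocyte markers fell in both, and the part of neither in these shares was tested. In whole brain the summed fat body markers were at 27.8 to 214 CPM at day 5 and 108 to 4023 CPM at day 70. The old libraries at 897, 1044, 1161 and 4023 CPM had eEF1alpha2 shares of 43.7%, 32.5%, 46.7% and 36.3%. The other old ones had shares of 48.1% to 54.2%, and the part of fat body RNA in them was not tested. The ratio of eEF1alpha1 to eEF1alpha2 per kilobase was 0.564 to 1.04 in young whole brain and 12.4 to 18.4 in young astrocyte-like glia.

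**Figure D4:**
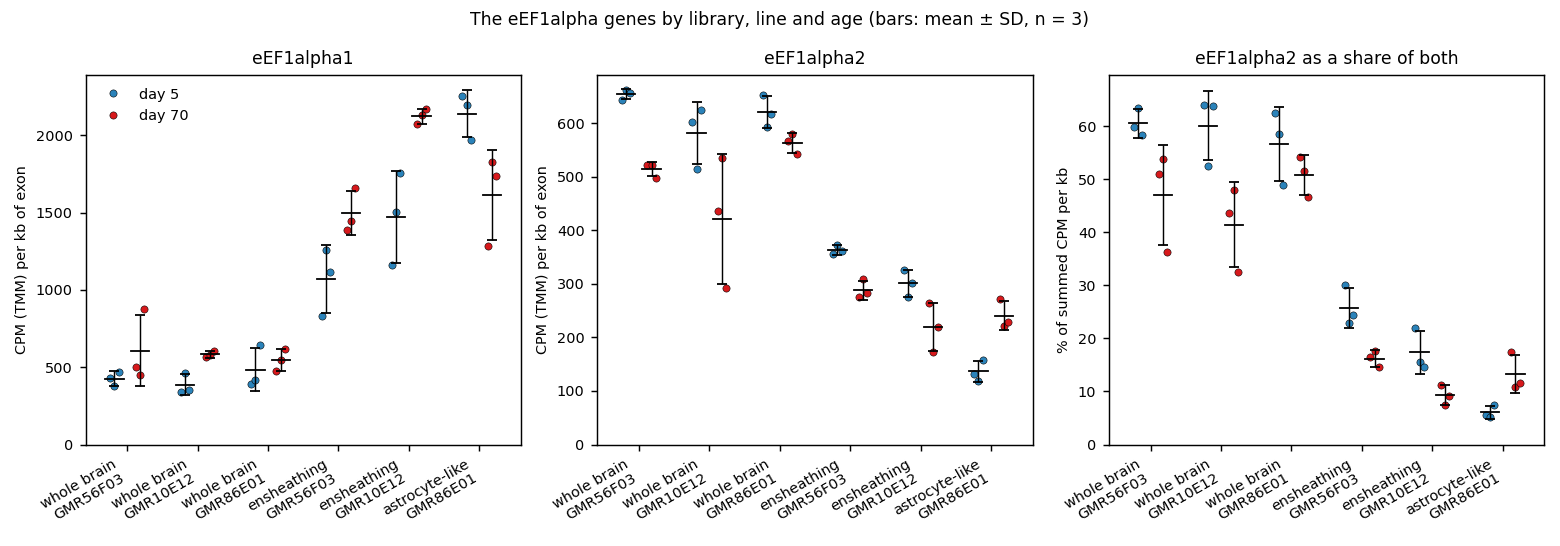
Levels of eEF1alpha1 and eEF1alpha2 (CPM per kb of exon) and the share of eEF1alpha2 in the sum of both (percent) by library, line and age; points are libraries and bars mean ± SD (n = 3). The share is highest in young whole brain (59.1% over 9 libraries) and lowest in young astrocyte-like glia (6.06% over 3).

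Compared with each other over both ages, the glial types differed in 6 of 45 members, beside 12% of all 9592 genes (6.77% higher and 5.24% lower in ensheathing glia). Lower in ensheathing glia were eIF4A (−0.52 ± 0.06, adjusted p = 2.48e-05), eEF2 (−0.35 ± 0.08, adjusted p = 0.00558), eIF3g1 (−0.39, adjusted p = 0.0306) and eIF3m (−0.32, adjusted p = 0.039). Higher there were eEF1alpha2 (0.67 ± 0.10, adjusted p = 0.000256) and eIF3j (0.33, adjusted p = 0.0325). The glial type and the driver line are the same split of these libraries, so the 2 cannot be told apart for the astrocyte-like cells.

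The ensheathing glia of the 2 lines differed in 7 members, all lower in GMR56F03, beside 14.6% of all genes (6.63% higher, 8% lower): eIF3j (−0.52 ± 0.11, adjusted p = 0.00506), eEF1alpha1 (−0.48 ± 0.12, adjusted p = 0.0133), eEF1gamma (−0.40), eIF4A (−0.26), eIF1A (−0.40), eIF4E6 (−1.09) and eIF3k (−0.36). With library totals as the scale 2 were higher and 1 lower, beside 1724 of all 9265 genes called, and the median of all genes moved from 0.03 to 0.20. By edgeR's test the age effect of no member differed between the lines, where 0.691% of all genes did (0.453% in one direction, 0.237% in the other). At an unadjusted p below 0.05 it was 2 members, and by DESeq2 1 member passed, beside 283 of all 9265 genes.

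Other genes of the translation pathway are given for comparison, as counts beside the same backgrounds. Of the cytosolic ribosomal protein genes, 75 of 85 rose with age in ensheathing glia (median 0.73), 17 of 86 rose in whole brain (median 0.31, or 53 of 86 with library totals), and 2 of 86 fell in astrocyte-like glia (median −0.24, or 0.15 with library totals). The age effect of none of the 86 differed between ensheathing glia and whole brain by edgeR's test, and 10 had an unadjusted p below 0.05. Between the glial types it was more positive in ensheathing glia for 82 of 86 (median difference 0.98), or for 29 with library totals. Both glial types had higher ribosomal protein levels than whole brain, 58 of 86 in the ensheathing (4 were lower) and 81 of 86 in the astrocyte-like cells. None of the 3 termination and recycling genes passed edgeR's test with age, and 1 had an unadjusted p below 0.05, in whole brain. Of the 20 aminoacyl-tRNA synthetases 1 rose in ensheathing glia, and of 7 mitochondrial translation factors 3 fell in ensheathing glia and 4 in whole brain.

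Of the 13 genes tested from a list of initiation regulators and genes linked to them, 4 rose with age in ensheathing glia. Thor, the fly 4E-BP that binds eIF4E and blocks its contact with eIF4G, rose most: 11.2, 24.1 and 33.5 CPM (lowest, median and highest) at day 5 and 43.5, 106 and 199 CPM at day 70 (log2 2.20 ± 0.38, adjusted p = 0.00125). The ages of Thor were separate. The others were the kinases S6k (0.82, adjusted p = 0.00258) and Lk6 (0.60, adjusted p = 0.00336), and crc, the fly ATF4 (0.54, adjusted p = 0.012). In whole brain Thor rose as well (1.60 ± 0.25, adjusted p = 0.000248), and Paip2, a protein that binds the poly(A)-binding protein, fell by 0.28 (adjusted p = 0.00451). In astrocyte-like glia Thor was at 13.3 to 51.2 CPM at day 5 and 50.5 to 227 CPM at day 70, and its change of 2.27 ± 0.62 did not pass (adjusted p = 0.0708).

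Against whole brain, Thor was higher in both glial types (log2 2.37 in ensheathing and 2.83 in astrocyte-like glia), as was crc (0.81 and 0.95), and Paip2 was lower (−1.16 and −0.73). The recycling factor pix was higher in both as well (0.21 and 0.67).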

How the data were processed

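Per the labels and the study's methods, GFP+ cells and unsorted suspensions were profiled by Smart-seq3, reads were aligned to dm6 with STAR 2.7.3a, improperly paired reads were removed, and the authors deposited 1 table of raw counts per gene (17562 genes, 36 libraries) made in union mode, which leaves out reads that overlap more than 1 gene. Whether strand was used and whether molecular identifiers were collapsed are not given in the sources used here. Reads from overlapping or antisense genes can therefore be lost or mixed, and 18 of the 52 members share exon bases with another gene. PCR copies are not independent molecules.

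Counts were tested with edgeR 4.0.16 (limma 3.58.1, R 4.3.3): TMM factors, filterByExpr, quasi-likelihood F test on the libraries of each comparison, Benjamini-Hochberg over all genes tested, called at an adjusted p below 0.05. The driver line was a term where a comparison held several lines. Standard errors are the log2 change over the square root of F. DESeq2 1.42.0, size factors, library totals, no filter, a minimum of 10 counts, a replicate block, single lines or ages and leaving out libraries were alternatives. The fits were tested on simulated data. In those data the age fit of astrocyte-like glia missed most changed genes, so genes not called there were not shown to be level. Each gene was matched by symbol to the Ensembl annotation of the dm6 assembly for position and exon length (52 of 52). The main fits were unpaired. In a paired alternative, sorted and whole brain samples of the same number formed a block, since the study describes both as taken from the same brains. Their deviations from group means had a mean correlation of 0.098 over 18 pairs. Values are named for pAbp, the eEF1alpha genes, eEF2, eIF4E1, eIF4G1, eIF4A, eIF2alpha, eEF5, eIF6 and eIF4EHP, and in each comparison for up to 4 called members in each direction with the smallest adjusted p. Other called members may be named with their log2 change. The members and lists were chosen with earlier results of these data known. No sample was left out.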

Additional observations from a re-analysis of the deposited data

Results flagged for a closer look

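In 68 groups of 6 or 9 libraries (17 members), 7 held a library whose distance to the nearest other exceeded Dixon's critical value for the range of its group. Chance flags about 1 in 20 groups. All 7 were whole brain libraries. Those of replicate 1 of GMR10E12 at day 70, the shallow library, were pAbp at 3325.4 CPM and eIF2beta at 185.31 CPM. At day 5 they were eEF1alpha1 at 1582.0 CPM (GMR86E01 replicate 3), eEF1alpha2 at 1369.3 CPM and eIF4E6 at 7.2275 CPM (both GMR10E12 replicate 2). At day 70 they were eEF1alpha1 at 2151.8 CPM (GMR56F03 replicate 3) and eEF1alpha2 at 777.37 CPM (GMR10E12 replicate 3). The summed fat body markers of those day 70 libraries were at 4023 CPM (GMR56F03 replicate 3) and 1044 CPM (GMR10E12 replicate 3).

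The age effect differed between kinds of sample, by the test of the difference itself, in 17 cases, all given above. Between ensheathing glia and whole brain these were pAbp (2.02), eIF4H1 (1.70), eIF4A (0.72) and eIF3f1 (0.67). Between astrocyte-like glia and whole brain they were pAbp (1.82), eIF4EHP (1.82) and eEF1alpha2 (0.95). Between the glial types they were eIF3f1 (1.24), eEF1beta (1.06), eEF1gamma (1.00), eEF5 (0.95), eEF1alpha1 (0.95), eIF3g1 (0.86), eIF3h (0.79), eIF3j (0.68), eIF4A (0.61) and eEF1alpha2 (−1.18).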

How the results depend on the processing

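Counts of called members depended on the processing more than the leading genes did. The number of all genes called moved as well, and is given in brackets with the number tested. In astrocyte-like glia, 3 members were called with age (553 of 8585). There were 14 in 1 fit over all 36 libraries (2226 of 10412) and 9 by DESeq2 (1181 of 8585). It was 1 with size factors (546 of 8585) and 1 with the replicate block (516 of 8585). In ensheathing glia it was 13 (1689 of 9265), against 8 in GMR56F03 alone (1297 of 8629) and 6 in GMR10E12 alone (825 of 8609). In whole brain it was 11 (2067 of 9650), against 0 in GMR10E12 alone (3 of 8378) and 4 in GMR86E01 alone (534 of 8715). Between ensheathing glia and whole brain it was 26 (5532 of 9984), against 14 at day 5 alone (3625 of 9984). Between the glial types it was 6 (1152 of 9592), against 3 with library totals (1459 of 9592). Between the driver lines it was 7 (1355 of 9265), against 11 by DESeq2 (1773 of 9265). There it was 3 with library totals (1724 of 9265) and 4 without a filter (1457 of 13731). For the age effect between glial types it was 10 (1139 of 9592), against 16 by DESeq2 (1553 of 9592) and 2 with library totals (1459 of 9592). Between ensheathing glia and whole brain it was 4 (425 of 9984), against 2 without a filter (336 of 15176) and 2 in the paired fit (71 of 9984). Between the lines it was 0 (64 of 9265), against 1 by DESeq2 (283 of 9265). The cause of these shifts was not tested.

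The direction of the age change of pAbp in whole brain, which passed no test, turned to 0.0329 by DESeq2, 0.0340 with size factors, 0.12 with library totals, 0.0108 with at least 10 counts in every library, 0.00341 in GMR56F03 alone and 0.16 in GMR10E12 alone. Leaving out libraries it ran from −0.15 to 0.0344.

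With single libraries or replicate numbers left out, the counts ran from 5 to 15 (age, ensheathing glia), 0 to 5 (age, astrocyte-like glia), 1 to 13 (age, whole brain), 22 to 29 and 21 to 29 (ensheathing and astrocyte-like glia against whole brain), 2 to 6 (between glial types) and 0 to 8 (between lines). For the differences in age effect they ran from 1 to 12 (between glial types), 1 to 8 and 0 to 5 (ensheathing and astrocyte-like glia against whole brain) and 0 to 0 (between lines). In the sentences that follow, the number of all genes called is in brackets. In astrocyte-like glia the age count was 1 without young replicate 1 (287) or 2 (226) or old replicate 2 (316) or 3 (201). It was 5 without young replicate 3 (512). Between glial types it was 3 without old GMR56F03 replicate 3 (977). Between the lines it was 4 without young GMR10E12 replicate 3 (1147) or young GMR56F03 replicate 2 (1096). It was 3 without young GMR56F03 replicate 1 (1040), and 2 without any one of the old GMR56F03 libraries (1020, 1021 and 1156). For the age effect in ensheathing glia against whole brain it was 8 without old whole brain GMR10E12 replicate 3 (468). It was 2 without young whole brain GMR10E12 replicate 2 (281) or GMR56F03 replicate 1 (256). It was also 2 without young ensheathing glia GMR10E12 replicate 3 (340) or GMR56F03 replicate 2 (320), or old ensheathing glia GMR56F03 replicate 1 (320). For astrocyte-like glia against whole brain it was 1 without young whole brain GMR86E01 replicate 1 (142) or 3 (149). It was also 1 without any old whole brain GMR86E01 library (223, 154 and 128), and 5 without young astrocyte-like replicate 3 (843).

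Replicate numbers of the ages are only names (mean correlation 0.028 over 18 pairs). With them as a block, 13 (ensheathing glia) and 11 (whole brain) members were called with age, beside 1533 of 9265 and 1883 of 9650 genes. The 7 members that were not tested had at most 17 counts in any library, and among those tested eIF4E3 had at most 21.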
